A study of Mus musculus with 5 samples.

Results

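Adipocyte genes were followed in RNA from the small intestine of 5 mice as a reading of how much fat tissue had come along with the intestinal wall. The set of 10 genes was fixed by symbol: Adipoq, Fabp4, Plin1, Plin4, Cidec, Lpl, Retn, Cfd, Car3 and Lep. Of these, 8 were found among the 19198 genes of the deposited table, and Retn and Lep had no row in the table used here, whose lowest gene total over the 5 libraries was 10 counts. The Cre-positive group held 2 mice that carried the Math1Cre*PR transgene and floxed alleles (fl/fl) of the M4 muscarinic acetylcholine receptor gene. The Cre-negative group held 3 littermates with the same floxed alleles and no transgene. Math1, also called Atoh1, drives the transgene in precursors of the secretory lineage of the gut epithelium, and Cre*PR is a Cre recombinase that is switched on by RU486. Both groups were given RU486 through a stomach tube (10 mg/kg a day over 4 days), so exposure to it was common to all 5 mice. Age, sex, gut segment and the way attached tissue was trimmed were not given in the sources used here. The labels give every mouse its own number, and each library came from 1 mouse.

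White adipocytes store triglyceride in a single large droplet and release it as fatty acids when the animal fasts. The droplet is coated by perilipins, enlarged by Cidec and filled with fatty acids that lipoprotein lipase frees from circulating lipoproteins. Adipocytes also secrete hormones and enzymes, among them adiponectin, leptin, resistin and complement factor D. The mesentery, the sheet that carries vessels to the small intestine, holds much fat and joins the outer wall, so dissected intestine can carry adipocytes with it. Several of these genes are also active outside fat: Fabp4 in capillary endothelium and macrophages, Lpl in macrophages and muscle, Car3 in slow skeletal muscle and Cidec in fatty liver.

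Library totals ran from 4681113 to 6618213 estimated counts, and 1 count corresponded to 0.155 to 0.239 CPM (a count scaled to library size, with TMM factors). The 8 adipocyte genes together held 175 to 230 counts in a library, or 0.00289% to 0.00491% of its total. The tissue label was borne out by epithelial markers such as Fabp2, the intestinal fatty acid binding protein gene, which averaged 911 CPM over the 5 libraries, and Vil1, the villin gene of the brush border, at 844 CPM. The 12 epithelial marker genes were detected in 5 of 5 libraries and summed to 3758 and 5560 CPM in Cre-positive mice 1 and 2, against 4679, 3976 and 4538 CPM in Cre-negative mice 1, 2 and 3. Cre-positive 1 stood apart from the other libraries through lymphoid genes: a list of 12 lymph node and follicle genes, 9 of them in the table, summed to 325 CPM there and 7.90 CPM in Cre-positive 2, against 6.21, 9.41 and 5.68 CPM in Cre-negative mice 1, 2 and 3. Cre-negative 1 stood apart through muscle and serosa: 10 smooth muscle genes summed to 1267 and 1540 CPM in Cre-positive mice 1 and 2, against 3883, 1955 and 1510 CPM in Cre-negative mice 1, 2 and 3. Cre-negative 1 also had the lowest total, the lowest TMM factor (0.895) and the highest share of counts from mitochondrial genes, which was 17.8% and 18.8% in Cre-positive mice 1 and 2, against 23.8%, 21.2% and 17.3% in Cre-negative mice 1, 2 and 3. Fold changes of the adipocyte genes are therefore also given without each of these libraries.

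The 8 genes followed 3 different courses over the libraries, and the promoter window of 1 gene of each course is shown (250 bases before to 50 after the start of the gene, RefSeq, GRCm38.p6, 5′ to 3′ on the strand of the gene). Adipoq stands for the 6 genes that were highest in Cre-positive 1, Plin4 was highest in Cre-negative 1 and Cidec was lowest in Cre-positive 1. Capitals mark CCAAT, the CCAAT box, on either strand (ATTGG on the other strand).
Adipoq, chr16:23146286-23146585, plus strand: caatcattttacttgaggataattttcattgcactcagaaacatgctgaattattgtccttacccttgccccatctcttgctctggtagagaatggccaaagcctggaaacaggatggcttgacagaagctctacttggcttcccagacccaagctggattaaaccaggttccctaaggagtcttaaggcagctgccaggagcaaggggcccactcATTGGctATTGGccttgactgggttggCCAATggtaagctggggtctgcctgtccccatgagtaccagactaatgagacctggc
Plin4, chr17:56109733-56110032, minus strand: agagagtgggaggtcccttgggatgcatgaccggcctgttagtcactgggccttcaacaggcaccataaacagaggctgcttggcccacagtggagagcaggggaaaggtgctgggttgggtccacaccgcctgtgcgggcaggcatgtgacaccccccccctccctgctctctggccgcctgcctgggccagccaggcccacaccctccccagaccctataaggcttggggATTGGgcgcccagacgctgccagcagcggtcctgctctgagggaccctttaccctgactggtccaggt
Cidec, chr6:113435711-113436010, minus strand: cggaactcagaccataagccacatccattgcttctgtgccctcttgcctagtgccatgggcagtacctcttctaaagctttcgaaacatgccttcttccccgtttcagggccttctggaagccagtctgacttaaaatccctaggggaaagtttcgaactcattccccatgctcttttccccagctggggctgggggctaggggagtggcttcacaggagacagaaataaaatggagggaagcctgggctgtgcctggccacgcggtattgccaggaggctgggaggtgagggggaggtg
Of the 10 genes, 7 matched the promoter table, and Cidec matched at 2 start sites, of which the upstream one is shown. The motifs searched on both strands were CCAAT, the TATA box TATAAA and the nuclear receptor core motif AGGTCA, which the adipogenic regulator PPARγ binds in paired form. The Adipoq window held CCAAT 3 times, beginning at positions -34, -27 and -7 from the start site, and the Plin4 window held it 1 time, at -18. Neither TATAAA nor AGGTCA was found in the 8 windows of the 7 genes. Among 32851 promoter windows of the same length, 37.4% held CCAAT, 13.6% TATAAA and 16.3% AGGTCA, so these matches describe the windows and identify no site in use.

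Genes that define the mature adipocyte were close to the limit of detection in both groups. Adipoq (chromosome 16, 23146536 to 23158028, plus strand, GRCm38), which encodes the hormone adiponectin and is made almost solely by adipocytes, had 7 and 0 counts in Cre-positive mice 1 and 2, against 4, 2 and 2 counts in Cre-negative mice 1, 2 and 3. These are 1.35 and 0 CPM in Cre-positive mice and 0.955, 0.369 and 0.325 CPM in Cre-negative mice. The 0 in Cre-positive 2 allows up to 3 counts, or 0.465 CPM, and such limits and intervals cover counting error only. The highest count was in Cre-positive 1 and the lowest in Cre-positive 2, but within that limit Cre-positive 2 could lie above Cre-negative 2 and 3.

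Plin1 (chromosome 7, 79720218 to 79732903, minus strand), the perilipin that guards the adipocyte droplet against lipases, had 6 and 1 counts in Cre-positive mice, against 2, 1 and 1 counts in Cre-negative mice. Cre-positive 1 held more than the other 4 libraries together, while Cre-positive 2 had the same count as Cre-negative 2 and 3. The 2 genes summed to 26 counts over the 5 libraries. Together they had 13 counts in Cre-positive 1 and 1 count in Cre-positive 2, against 6, 3 and 3 counts in Cre-negative mice.

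Fabp4 and Cfd were somewhat more abundant and ordered the libraries in the same way. Fabp4 (chromosome 3, 10204088 to 10208576, minus strand), a carrier of fatty acids inside the cell, had 11 and 4 counts in Cre-positive mice, against 7, 8 and 4 counts in Cre-negative mice. Cfd (chromosome 10, 79890853 to 79892655, plus strand), complement factor D or adipsin, a protease of the alternative complement pathway that fat secretes, had 17 and 3 counts in Cre-positive mice, against 7, 8 and 5 counts in Cre-negative mice. In both genes the Cre-positive mice lay above and below the Cre-negative range on the CPM scale. In all, Adipoq, Plin1, Fabp4 and Cfd summed to 7.88 and 1.24 CPM in Cre-positive mice 1 and 2, against 4.77, 3.51 and 1.95 CPM in Cre-negative mice 1, 2 and 3. The means of these sums were 4.56 ± 4.70 CPM (SD, n = 2) in Cre-positive and 3.41 ± 1.41 CPM (SD, n = 3) in Cre-negative mice. These 4 genes were grouped after their values had been seen, because each had too few counts to enter the test.

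Lpl and Car3 stood at higher levels and were also highest in Cre-positive 1 and next highest in Cre-negative 1. Lpl (chromosome 8, 68880491 to 68907448, plus strand), the lipoprotein lipase that works on the capillary wall, had 34 and 16 counts in Cre-positive mice, against 23, 21 and 16 counts in Cre-negative mice. Its CPM was 6.54 and 2.48 in Cre-positive mice and 5.49, 3.88 and 2.60 in Cre-negative mice. Car3 (chromosome 3, 14863512 to 14872523, plus strand), a cytosolic carbonic anhydrase abundant in fat and slow muscle, had 55 and 25 counts in Cre-positive mice, against 42, 39 and 22 counts in Cre-negative mice. Its CPM was 10.6 and 3.87 in Cre-positive mice and 10.0, 7.20 and 3.57 in Cre-negative mice. For Lpl the Cre-positive mice again enclosed the Cre-negative range, and for Car3 the lowest library was Cre-negative 3.

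Plin4 and Cidec held 577 of the 970 counts of the set and did not follow the other 6 genes. Plin4 (chromosome 17, 56100591 to 56109803, minus strand), a perilipin that coats nascent droplets, had 40 and 51 counts in Cre-positive mice, against 95, 48 and 54 counts in Cre-negative mice. On the CPM scale Plin4 had 7.69 and 7.90 in Cre-positive mice and 22.7, 8.86 and 8.76 in Cre-negative mice, so the groups did not overlap, but both Cre-positive values lay close below Cre-negative 2 and 3. Only 17 bases of its exons (0.294%) overlap exons of another gene, Hdgfl2, on the opposite strand. Cidec (chromosome 6, 113424634 to 113435760, minus strand), which fuses droplets into larger ones, had 22 and 91 counts in Cre-positive mice, against 50, 48 and 78 counts in Cre-negative mice. Its CPM was 4.23 and 14.1 in Cre-positive mice and 11.9, 8.86 and 12.7 in Cre-negative mice. For Cidec the order of the 2 Cre-positive mice was turned round: Cre-positive 1, the highest library for 6 of the 8 genes, was the lowest, and Cre-positive 2 was the highest.

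**Figure D1:**
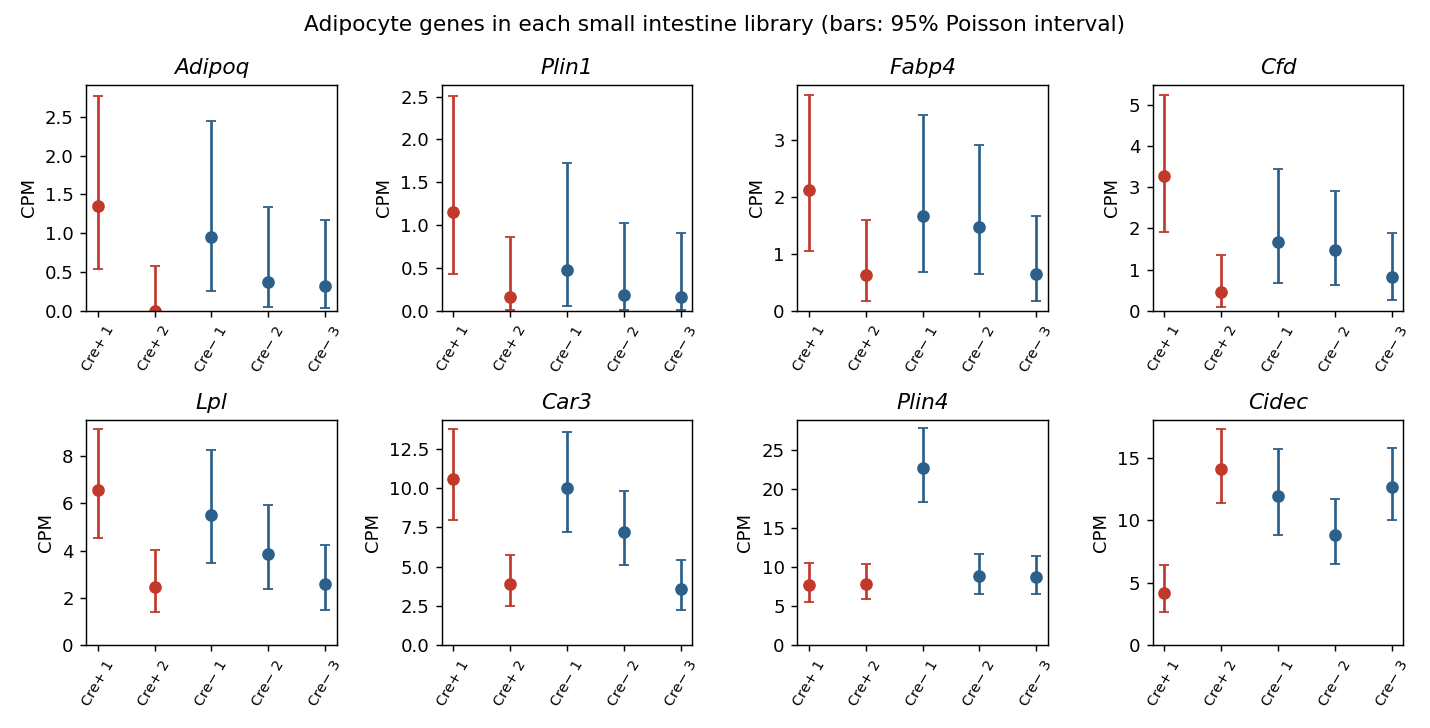
CPM of the 8 adipocyte genes (vertical axes, each from 0) in the 2 Cre-positive (Cre+, red) and 3 Cre-negative (Cre−, blue) libraries; bars are exact Poisson 95% intervals of each count. Adipoq, Plin1, Fabp4, Cfd, Lpl and Car3 are highest in Cre-positive 1, Plin4 is highest in Cre-negative 1 at 22.7 CPM, and Cidec is lowest in Cre-positive 1 at 4.23 CPM.

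Scaled to length (CPM per kb of exon of coding transcripts, mean over the 5 libraries), the order of levels was Cidec at 5.90, Car3 at 4.20, Plin4 at 1.94, Cfd at 1.67, Fabp4 at 1.46, Lpl at 1.02, Adipoq at 0.464 and Plin1 at 0.110. Neighbours in this order had ranges over the 5 libraries that overlapped throughout. Several relatives of the same families stood higher on the same scale. Fabp2 averaged 944 CPM per kb and Fabp6, the ileal bile acid carrier gene, 68.0, against 1.46 for Fabp4. The level of Fabp6 differed widely between libraries. It was 47.3 and 6.35 CPM in Cre-positive mice 1 and 2, against 47.5, 61.1 and 0.649 CPM in Cre-negative mice 1, 2 and 3. Plin2 and Plin3, the perilipins of most non-adipose cells, averaged 26.3 and 26.8 CPM per kb, above Plin4 and Plin1. Cideb, the family member of liver and intestine that acts in lipoprotein loading, averaged 61.1 CPM per kb, and the carbonic anhydrase genes Car4 and Car13 averaged 68.1 and 61.1. Of the resistin family, Retnla had 2 and 1 counts in Cre-positive mice, against 34, 1 and 1 counts in Cre-negative mice, and Retnlb, a goblet cell product, had 14 and 3 counts in Cre-positive mice, against 0, 3 and 0 counts in Cre-negative mice.

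For no adipocyte gene did the test find Cre-positive intestine to differ from Cre-negative intestine beyond the spread between mice. Of the 8 genes in the table, 4 passed the filter on low counts (Plin4, Cidec, Lpl and Car3) and 0 of these were called by edgeR's quasi-likelihood test at a Benjamini-Hochberg adjusted p under 0.05, where 0% of all 14352 genes tested were called. At an unadjusted p under 0.05 there were 0 of the 8 genes, beside 3.38% of all genes tested, and the DESeq2 Wald test and limma-voom each called 0 of the 4 (24 and 0 of all genes, by tool in that order). Fold changes are given as log2 of Cre-positive over Cre-negative. Plin4 had a log2 fold change of -0.77 ± 0.49 (SE) and Cidec one of -0.27 ± 0.50 (edgeR adjusted p = 0.977 for both). The value was 0.18 ± 0.55 for Lpl (edgeR adjusted p = 0.981) and 0.07 ± 0.58 for Car3 (edgeR adjusted p = 0.993). Plin4 was the only one of the 8 genes with groups that did not overlap, lower in Cre-positive mice, where 10.2% of all genes tested were lower and 7.87% higher without overlap. Without Cre-negative 1, the library with the highest mitochondrial share, its log2 fold change was -0.15, and the part of RNA quality in the Plin4 values was not tested. The median over the 4 genes tested was -0.10, beside -0.04 over all genes tested.

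The 4 genes under the filter have no call, and their fold changes come from the same fit without a filter. These log2 fold changes were 0.32 ± 1.30 (SE) for Adipoq, 1.25 ± 1.18 for Plin1, 0.15 ± 0.77 for Fabp4 and 0.53 ± 0.83 for Cfd, each with a standard error above or close to the size of the change. Leaving out Cre-positive 1 turned the sign for 7 of the 8 genes, all but Plin4: Plin1 then had -0.63, Fabp4 -0.94, Cfd -1.40, Lpl -0.63, Car3 -0.78 and Cidec 0.37. Without Cre-positive 1 the remaining Cre-positive library had 0 counts of Adipoq, so no fold is given for it. Without Cre-positive 2 the values were 1.37 for Adipoq, 2.10 for Plin1, 0.81 for Fabp4, 1.36 for Cfd, 0.77 for Lpl, 0.67 for Car3 and -1.35 for Cidec. Without Cre-negative 1 they were 0.87 for Adipoq, 1.77 for Plin1, 0.37 for Fabp4, 0.70 for Cfd, 0.49 for Lpl, 0.45 for Car3 and -0.20 for Cidec. Each of these kept the sign it had over all 5 mice. Leaving out Cre-negative 3 turned the sign for Fabp4 (-0.17), Lpl (-0.01) and Car3 (-0.21), and the other genes kept theirs. Leaving out Cre-negative 2 turned no sign. Exact permutation tests of the CPM over the 10 splits of the mice (two-sided, smallest possible p 0.1) gave p = 0.5 for Plin4, 0.7 for Cidec and Plin1, 0.8 for Adipoq, Lpl, Cfd and Car3 and 1 for Fabp4.

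**Figure D2:**
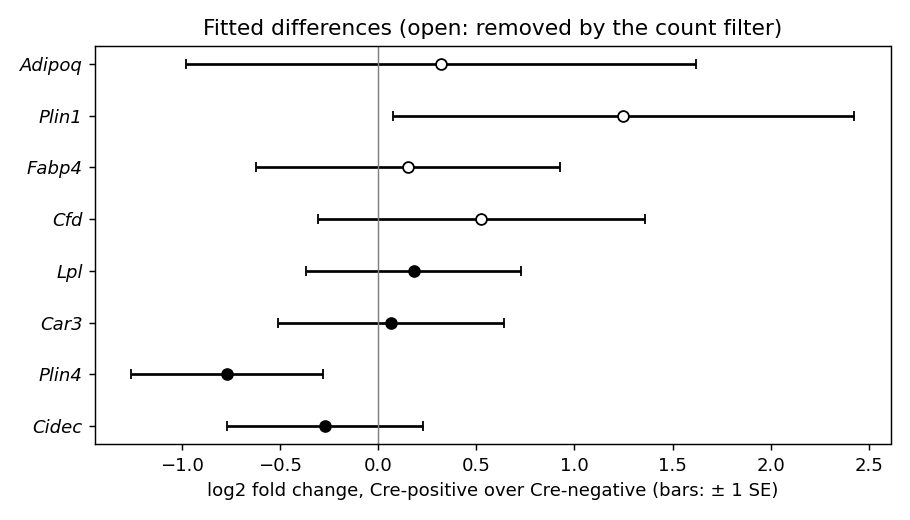
Fitted log2 fold change, Cre-positive relative to Cre-negative mice (horizontal axis), with ± 1 SE from edgeR for each adipocyte gene; filled points passed the count filter and open points did not. Values run from -0.77 for Plin4 to 1.25 for Plin1, and none of the 4 genes tested was called.

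The summed level of the 8 genes differed between the group means by less than the SD of the Cre-negative mice, and the groups overlapped. It was 36.9 and 29.6 CPM in Cre-positive mice 1 and 2, against 54.9, 32.3 and 29.5 CPM in Cre-negative mice 1, 2 and 3, or 33.3 ± 5.18 CPM (SD, n = 2) and 38.9 ± 13.9 CPM (SD, n = 3). In Cre-negative 1, the highest library, Plin4 alone made 22.7 of the 54.9 CPM. The log2 ratio of the mean sums was -0.23 over all mice and 0.11 without Cre-negative 1, so its sign rested on that mouse. Plin4 and Cidec together made 11.9 and 22.0 CPM in Cre-positive mice, against 34.6, 17.7 and 21.4 CPM in Cre-negative mice, while the other 6 genes made 25.0 and 7.59 CPM, against 20.3, 14.6 and 8.11 CPM in the same order of mice. The sum of the whole set therefore mixed courses that differ between libraries, and in bulk RNA fewer cells of a type and less RNA per cell cannot be told apart.

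The 6 genes outside Plin4 and Cidec are those that were highest in Cre-positive 1, so some likeness among them follows from the grouping. The likeness of 2 genes was taken as the root mean square difference of their log2 CPM (prior count 2) over the 5 libraries, each gene centred on its own mean, and is a description over 5 libraries, in which all genes share the depth and tissue of each library. Fabp4 and Lpl differed by 0.13 on the log2 scale, Fabp4 and Car3 by 0.13, and Lpl and Car3 by 0.16. Genes outside the set lay nearer still: among 13742 ranked, the nearest was 0.07 from Fabp4, 0.07 from Lpl and 0.05 from Car3. Adipoq lay 0.26 from Cfd, 0.35 from Lpl, 0.39 from Car3 and 0.40 from Fabp4 and Plin1. Cidec was 1.28 from Adipoq and 1.04 from Lpl, and Plin4 was 0.77 from Adipoq and 0.69 from Cidec. With 0 counts of Adipoq in Cre-positive 2, its level there, and with it each of these differences from Adipoq, depends on the prior count.

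**Figure D3:**
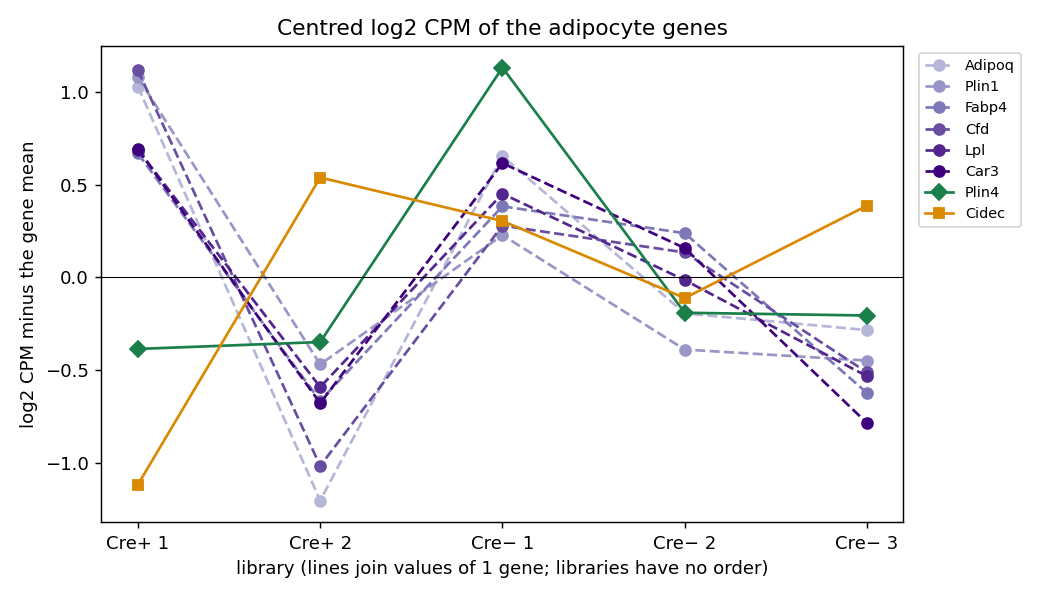
Log2 CPM of each adipocyte gene minus its mean over the 5 libraries (vertical axis) in Cre-positive (Cre+) and Cre-negative (Cre−) libraries; lines join the values of 1 gene. The 6 dashed genes lie between 0.67 and 1.12 in Cre-positive 1 and between -1.20 and -0.47 in Cre-positive 2, where Cidec has -1.12 and 0.54 and Plin4 has -0.39 and -0.35.

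For each of these 6 genes the list with the nearest summed level was that of endothelial or of macrophage genes. The 10 endothelial genes in the table summed to 25.2 and 10.7 CPM in Cre-positive mice 1 and 2, against 24.8, 24.5 and 11.7 CPM in Cre-negative mice 1, 2 and 3. The single genes differed in course, and 4 of the 10 were highest in Cre-positive 1. Egfl7, a secreted endothelial factor gene and the most abundant of the list, had 3.65 and 3.41 CPM in Cre-positive mice, against 5.25, 8.86 and 5.19 CPM in Cre-negative mice, lower in both Cre-positive mice. Pecam1, the gene of the junction protein CD31, had 7.50 and 1.08 CPM in Cre-positive mice, against 3.10, 3.51 and 1.46 CPM in Cre-negative mice, and was highest in Cre-positive 1. Esam, an endothelial adhesion molecule gene, had 1.73 and 2.17 CPM in Cre-positive mice, against 7.64, 2.95 and 0.649 CPM in Cre-negative mice, and was highest in Cre-negative 1. The centred log2 level of Fabp4 lay 0.14 from that of the endothelial list and that of Car3 0.19. Lpl lay 0.20 and Plin1 0.23 from the macrophage list. The other genes lay farther off: Cfd was 0.35 from the endothelial list. Adipoq was 0.45 from the macrophage list and 0.46 from the endothelial list. The list sums were taken without a prior count. The 11 macrophage genes in the table summed to 233 and 120 CPM in Cre-positive mice, against 193, 122 and 118 CPM in Cre-negative mice, with 0 of 10 tested called, and 0 of 5 tested endothelial genes were called. Of the 11 macrophage genes, 7 were highest in Cre-positive 1, and the lysozyme gene Lyz2 made the largest difference to their sum, with 105 and 15.8 CPM in Cre-positive mice, against 43.9, 29.7 and 14.9 CPM in Cre-negative mice. Mertk, a receptor for dying cells and the most abundant of the list, had 59.0 and 83.7 CPM in Cre-positive mice, against 69.2, 59.1 and 81.1 CPM in Cre-negative mice, and was lowest in Cre-positive 1. Mrc1, the mannose receptor gene, had 10.6 and 6.35 CPM in Cre-positive mice, against 22.4, 11.8 and 6.33 CPM in Cre-negative mice, and was highest in Cre-negative 1. Cre-positive 1, highest for the 6 adipocyte genes, also held the lymphoid genes given above. The part of endothelium, macrophages or lymphoid tissue in the counts of the 6 genes was not tested.

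Plin4 lay nearest to the smooth muscle list, with a difference of 0.15 on the centred log2 scale, followed among cell type lists by the mesothelial list at 0.29. The 10 smooth muscle genes had 0 called and 10 negative log2 fold changes with a median of -0.83. Over all genes tested, 54.5% were negative and the median was -0.04. All 10 smooth muscle genes were highest in the single library Cre-negative 1, and 5 were lowest in Cre-negative 3, so their signs are not separate observations. Mylk, the myosin light chain kinase gene, averaged 1051 CPM, Myh11, the smooth muscle myosin gene, 305 CPM and Des, the desmin gene, 208 CPM. The 14 mesothelial genes, markers of the serosa that covers gut and mesentery, summed to 1488 and 1669 CPM in Cre-positive mice, against 4674, 1987 and 1135 CPM in Cre-negative mice, with C3, Muc16 and Cldn15 as the most abundant at 1528, 294 and 131 CPM. All 14 had negative log2 fold changes (median -0.74) and 0 were called. Of the 14, 13 were highest in Cre-negative 1 and 11 were lowest in Cre-negative 3. Cldn15 is also a claudin of the intestinal epithelium, and C3 is made by other cell types. The part of muscle or serosa in the Plin4 counts was not tested.

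**Figure D4:**
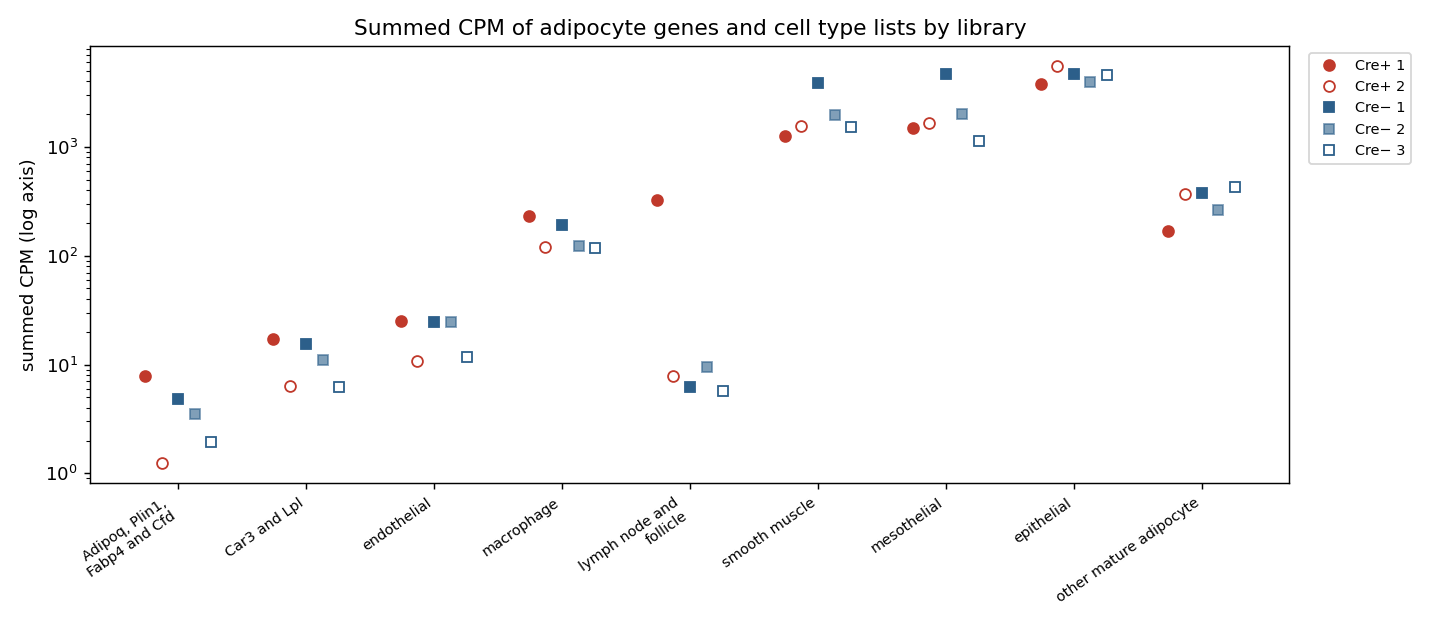
Summed CPM (vertical log axis) of 2 groups of adipocyte genes and 7 marker lists in Cre-positive (Cre+, circles) and Cre-negative (Cre−, squares) libraries. Adipoq, Plin1, Fabp4 and Cfd run from 1.24 to 7.88 CPM, smooth muscle and mesothelial genes are highest in Cre-negative 1, and lymph node and follicle genes reach 325 CPM in Cre-positive 1.

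The summed level of a further list of mature adipocyte genes lay nearest to Cidec among the 8 genes. The difference was 0.17 on the centred log2 scale, and most of that sum was Gpd1. Cidec lay nearly as close to lipoprotein lipase partners (0.18), family relatives (0.22), brown fat genes (0.24) and triglyceride storage and lipolysis genes (0.24). The epithelial list was 0.45 from Cidec, and the part of epithelium in the Cidec counts was not tested. Of 22 listed, 11 were in the table, 6 passed the filter and 0 were called, with 1 positive and 5 negative log2 fold changes and a median of -0.48. Their summed level was 168 and 372 CPM in Cre-positive mice, against 376, 265 and 425 CPM in Cre-negative mice, the reverse order of the Cre-positive mice from that of Adipoq. Gpd1, a glycerol phosphate dehydrogenase gene, had 115 and 265 CPM in Cre-positive mice, against 217, 185 and 339 CPM in Cre-negative mice. The single genes of the list took different courses: of the 11, 6 were lowest in Cre-positive 1, 2 were highest there (Acvr1c and Cdo1) and 4 were highest in Cre-negative 1 (Aqp7, Adcy5, Nnat and Mest). Acvr1c, a receptor gene of the activin family, had 19.0 and 15.6 CPM in Cre-positive mice, against 12.6, 11.4 and 16.4 CPM in Cre-negative mice. Adcy5, an adenylate cyclase gene, had 12.3 and 13.02 CPM in Cre-positive mice, against 36.3, 21.6 and 15.9 CPM in Cre-negative mice, without overlap (edgeR adjusted p = 0.977). Aqp7, the glycerol channel gene, and Tmem120a averaged 39.3 and 11.7 CPM. Nnat, Mest and Cdo1 averaged 5.30, 1.56 and 1.27 CPM. Adrb3, the β3-adrenergic receptor gene, had 0 and 11 counts in Cre-positive mice, against 6, 4 and 8 counts in Cre-negative mice. For Adrb3, Cre-positive 1 was thus the lowest library, opposite to its place for Adipoq. The 0 there allows up to 3 counts, or 0.577 CPM.

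Genes for storing and releasing triglyceride were abundant beside the adipocyte genes. Of 18 listed, 16 were in the table, 15 were tested and 0 were called, with 3 positive and 12 negative log2 fold changes and a median of -0.11. Dgat1, which completes triglyceride in enterocytes as in fat, averaged 351 CPM, Agpat2 107 CPM, Plin3 97.8 CPM, the adipose triglyceride lipase gene Pnpla2 61.2 CPM and the caveolar gene Cavin1 53.6 CPM. Dgat1 stood at 132 and 496 CPM in Cre-positive mice, against 372, 303 and 453 CPM in Cre-negative mice, low in the same library as Cidec.

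Among adipogenic regulators, Pparg followed Adipoq only in part. Like Adipoq it was highest in Cre-positive 1, but it was lowest in Cre-negative 1, the next highest library for Adipoq. Pparg, the nuclear receptor that commands fat cell differentiation and is also present in gut epithelium, had 28 and 13 counts in Cre-positive mice, against 4, 10 and 19 counts in Cre-negative mice (log2 fold change 0.86 ± 0.64; edgeR adjusted p = 0.977). Cre-negative 3 lay between the 2 Cre-positive mice. Cebpa, a partner of Pparg in fat and also active in epithelium, averaged 8.13 CPM, and the most abundant others of the list were Klf4 and Rxra at 183 and 60.4 CPM. Of 9 members tested, 3 had positive and 6 negative log2 fold changes, and 0 were called. For insulin-responsive glucose uptake, 0 of 10 genes were called (1 positive, 9 negative, median -0.33), with Insr and Irs2 at 110 and 94.0 CPM. Slc2a4, the insulin-regulated glucose transporter GLUT4 of fat and muscle, had 14 and 16 counts in Cre-positive mice, against 35, 31 and 21 counts in Cre-negative mice (log2 fold change -1.15 ± 0.49; edgeR adjusted p = 0.977).

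Among partners of lipoprotein lipase and of the adipokines, 0 genes were called. Gpihbp1, which anchors the lipase on capillaries, had no row in the table used here. Angptl4, an inhibitor of the lipase that fasting induces, had 52 and 51 counts in Cre-positive mice, against 91, 29 and 42 counts in Cre-negative mice. Lrp1 and Sel1l averaged 343 and 164 CPM, and of the 9 genes tested 0 were called, with 1 positive and 8 negative log2 fold changes and a median of -0.32. Among receptors and effectors of adipokines, 0 of 11 tested were called. Adipor2 and Adipor1, the adiponectin receptors, averaged 365 and 130 CPM, C3, the complement component whose convertase Cfd helps to form, 1528 CPM, and Cap1, a proposed resistin receptor, 194 CPM. Of brown fat genes, Ucp1, the uncoupling protein that defines brown adipocytes, had no row in the table used here, and of 11 listed genes 5 were in the table and 3 were tested, with 0 called. The most abundant, Ppargc1a, averaged 132 CPM and is active in many tissues, and Cpt1b and Cox7a1 averaged 2.85 and 2.64 CPM.

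Markers of other tissue that could be attached were few in the table for pancreas and skeletal muscle. Of 16 pancreatic acinar genes 3 were in the table (Rnase1, Cela1 and Ctrl), summing to 5.19 and 8.52 CPM in Cre-positive mice, against 6.68, 6.09 and 8.76 CPM in Cre-negative mice. Of 12 skeletal muscle genes 3 were in the table, summing to 10.96 and 3.56 CPM in Cre-positive mice, against 5.73, 2.77 and 2.27 CPM in Cre-negative mice, and Acta1, the skeletal actin gene, gave 49 counts in Cre-positive 1 and 5 in Cre-positive 2, against 3, 7 and 3 counts in Cre-negative mice. The summed level was thus highest in Cre-positive 1, as for Car3 and the 5 genes like it, through Acta1, while Ckm was highest in Cre-negative 1 and Tnnt1 had 0 counts in Cre-positive 1. The part of skeletal muscle in the counts of the 6 genes was not tested. Progenitor and fibroblast genes, led by Dpp4, an enterocyte peptidase as well, Dcn and Col3a1 at 1109, 132 and 87.5 CPM, summed to 1301 and 1681 CPM in Cre-positive mice, against 1832, 1435 and 1306 CPM in Cre-negative mice. Red blood cell genes, led by Hba-a2 and Hbb-bs, summed to 7.50 and 9.76 CPM in Cre-positive mice, against 41.8, 12.2 and 8.28 CPM in Cre-negative mice. In these 4 lists 0 genes were called.

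By the rule set for genes most like Adipoq, 13742 genes whose log2 CPM averaged 1 or more were ranked, and the 8 nearest were Nfatc2, Stox2, Sprr1a, Adamts6, Tagap, Zfp459, Gbp4 and Cplx2. Their root mean square differences from Adipoq ran from 0.11 to 0.19 on the log2 scale over 5 libraries. The 8 adipocyte genes themselves were not ranked, and 5 of the 11 further mature adipocyte genes lay below the level required. Nfatc2, a transcription factor of activated lymphocytes, had 5.58 and 1.08 CPM in Cre-positive mice, against 4.30, 2.77 and 2.11 CPM in Cre-negative mice. With 0 to 7 counts of Adipoq in a library, this order rests on few reads. Plin4 and Cidec, like Fabp4, Lpl and Car3 above, were ranked in the same way after their values had been seen. Nearest to Plin4 were Abca2, Ndrg1 and Tgfb1i1, at 0.05, 0.05 and 0.06, and nearest to Cidec were Naprt, Acad11 and Lpar5, at 0.05, 0.05 and 0.06.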

How the data were processed

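Total RNA of the small intestine was depleted of ribosomal RNA and sequenced, per the labels' protocols. The authors deposited estimated counts per gene, 1 column per mouse, and the submitters' processing notes name Partek and mm10. How reads were aligned and counted, against which annotation and with what use of strand, was not given in the sources used here. Values were rounded to whole numbers, and those of the 8 adipocyte genes were already whole in 5 of 5 libraries (within 0.005). Unused columns of sample values and rows without a gene name numbered 0.

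Mice were grouped by the genotype label, and replicate numbers pair no mice. Groups were compared with edgeR 4.0.16 (R 4.3.3), using TMM, filterByExpr with a minimum count of 10 (14352 genes kept, 4846 removed), a robust quasi-likelihood fit on genotype and Benjamini-Hochberg adjustment over all genes tested. Standard errors were derived from the fold change and its F. Spread between mice gave a biological coefficient of variation of 33.1% on 3 residual degrees of freedom. A gene can pass the filter through 2 libraries alone. The fit was tested on simulated data. With so few mice, a gene without a call is not shown to be unchanged.

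Alternatives were RLE, upper-quartile and total scaling, DESeq2 1.42.0, limma-voom (limma 3.58.1), no robust estimation, no or a stricter filter (5 CPM in 2 libraries), unrounded counts, an adjusted p of 0.1 and leaving out each mouse. Coordinates and exon lengths (protein-coding transcripts of the basic set) are from GENCODE M21 on GRCm38, which mm10 denotes. Genes to name were all members in the table, the most abundant genes of each list (1 of them is not reported here) and the 8 genes most like Adipoq; Adrb3, Slc2a4, Hdgfl2, the resistin relatives and some other family relatives were added after their values were seen. Members and lists were chosen with earlier results of these data known.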

Additional observations from a re-analysis of the deposited data

How the results depend on the processing

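The number of genes called stayed at 0 under 13 of 15 alternatives: the lowest and highest counts without 1 mouse were 0 and 58, the latter without Cre-positive 2, and the DESeq2 Wald test called 24 (17 higher, 7 lower). In 107 alternatives computed for the 8 adipocyte genes, 13 turned the sign, 10 of these when a mouse was left out. Only alternatives for Plin4, Cidec, Lpl and Car3 could pass the threshold, and 0 did. Adipoq, Fabp4, Plin1 and Cfd were given no adjusted p under any alternative. Without 1 mouse, the log2 fold change ran from -0.94 to 0.81 for Fabp4, -0.63 to 2.10 for Plin1, -1.35 to 0.37 for Cidec, -0.63 to 0.77 for Lpl, -1.40 to 1.36 for Cfd and -0.78 to 0.67 for Car3, with the cause not tested. Adipoq ran from -4.59 to 1.37, and its lowest value, fitted to a lone library at 0 counts, is no estimate of a fold. Plin4 kept its sign, from -0.999 to -0.15. limma-voom gave -0.89 for Adipoq, -0.013 for Fabp4 and -0.042 for Cfd, and the cause was not tested. The log2 ratio of the summed level of the 8 genes was -0.23 and ran from -0.39 to 0.11 without 1 mouse (0.11 without Cre-negative 1) and from -0.23 to -0.18 under the other alternatives, within the spread between mice (0.42). For Adipoq, Plin1, Fabp4 and Cfd, a sum added after seeing the data, it was 0.42 and ran from -1.46 to 1.21 without 1 mouse. The spread between mice of this sum was 1.21, and leaving out Cre-positive 1 (-1.46) moved the ratio by more than that. A fit without 1 Cre-positive mouse assumes that the other varies like the Cre-negative mice. With 0 to 17 counts per library, Adipoq, Plin1, Fabp4 and Cfd did not pass the filter and have no call. No paired analysis was possible because the mouse numbers are shared by no 2 libraries.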
